A study of Mus musculus with 24 samples.

Results

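The genes described here encode the subunits of the proteasome and its regulators, 39 in all. They were taken from a list of core, regulatory and immunoproteasome subunits, and 38 of them could be read from a probe set that names a single gene, out of 18193 genes with such a probe set. The exception was Psme2, whose probe set also names Psme2b. Each gene was represented by its probe set with the highest mean log2 signal over all 24 arrays.

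The arrays were hybridized with liver RNA of male C57BL6/J mice, 1 array per mouse and 8 mice per group. All mice were 8 weeks old at the start, were fed a western diet with 6% sucrose in the drinking water, and received chemically modified siRNA in lipid nanoparticles weekly for 7 weeks into the tail vein, at 1 mg per kg. The groups differed in the siRNA. siControl was the control siRNA, and siKeap1-1 and siKeap1-2 were a pair of siRNAs against Keap1. By the methods each group held 4 fed and 4 fasted mice, and because the labels do not tell them apart, feeding state remained part of the spread within groups. The RNA came from whole liver, so fewer cells of a type and less RNA per cell cannot be told apart.

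The 26S proteasome degrades ubiquitylated proteins. Its barrel-shaped 20S core is built of outer rings of alpha subunits, which gate the entry, and inner rings of beta subunits, of which Psmb5, Psmb6 and Psmb7 carry the proteolytic sites. The 19S particle caps the core, with a base of ATPases and scaffold proteins that unfold the substrate and a lid that removes its ubiquitin chain. Under interferon, Psmb8, Psmb9 and Psmb10 replace the catalytic beta subunits to form the immunoproteasome, and Psme1 and Psme2 form an alternative cap. Keap1 marks the transcription factor Nrf2 (encoded by Nfe2l2) for degradation, and Nrf2 and its relative Nrf1 (Nfe2l1) bind antioxidant response elements in the promoters of their target genes.

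The silencing itself was measured first. The log2 signal of Keap1 was lowest 9.33, median 9.57 and highest 10.03 with siControl, 7.21, 7.47 and 7.93 with siKeap1-1, and 8.03, 8.23 and 8.59 with siKeap1-2. The groups did not overlap, and the geometric mean signal was 22.9% of control with siKeap1-1 and 38.8% with siKeap1-2 (p = 0.000155 for both, exact two-sided permutation test, the smallest p that 8 against 8 mice allow). Nqo1, a quinone reductase and standard Nrf2 target, rose by 2.22 (adjusted p = 8.8e-14) and 1.91 (adjusted p = 3.0e-12) on the log2 scale.

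To show what the promoters of called and uncalled members look like, the stretch around a core antioxidant response element is printed for 4 genes, from the RefSeq promoter windows (mouse build GRCm38.p6, 5′ to 3′ on the strand of the gene). Capitals mark the match to TGACNNNGC or TGAGNNNGC, searched on both strands over the 250 bases before the gene start. The stretches lie at chr14:54618014-54618062 on the minus strand for Psmb5, and on the plus strand at chr1:86064375-86064423 for Psmd1, chr11:70525328-70525356 for Psmb6 and chr14:45329574-45329625 for Psmc6.
Psmb5: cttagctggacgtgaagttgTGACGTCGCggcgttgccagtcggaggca
Psmd1: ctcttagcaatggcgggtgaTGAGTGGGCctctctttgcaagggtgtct
Psmb6: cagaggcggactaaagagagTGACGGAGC
Psmc6: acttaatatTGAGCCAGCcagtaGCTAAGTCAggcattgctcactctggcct

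Such a match was present in 10 of the 36 promoter windows of the members (27.8%) and in 23.0% of the 32851 windows of all genes. The windows of 33 members were listed, and 9 of these genes had a match, namely Psma4, Psma6, Psmb3, Psmb5, Psmb6, Psmc2, Psmc6, Psmd1 and Psmd12. The CCAAT box, bound by the factor NF-Y and also searched on both strands, was found in 33.3% of the members' windows and in 33.8% of all windows. As described below, Psmb5 and Psmd1 were called higher with both siRNAs and Psmb6 and Psmc6 with neither, although all 4 windows hold a match. Psmd11, Psmd8 and Psme1 were called in at least 1 comparison and had no match. Psmb2, also called, had no listed window, and neither had Psmb1, Psmb7, Psmc3, Psmd3 and Psmd7. A match is a description of the letters and not a measured site.

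With siKeap1-1, 5 of the 38 measured members were higher than with siControl and none was lower (limma, adjusted p under 0.05 over all 45037 probe sets, which is what "called" means here). Among all 18193 genes 4.82% were called higher and 4.67% lower, and among the 4776 genes with a mean log2 signal over 10, as 35 of the measured members have, 7.81% and 7.39%. The called members were the catalytic beta subunit Psmb5, the structural beta subunit Psmb2, the base scaffold Psmd1 and the lid subunits Psmd8 and Psmd11. Before adjustment, 10 of the 38 members had p under 0.05 (limma), all of them higher. Of all 18193 genes, 2269 were higher and 2190 lower at that p. The median difference over the members was 0.07 on the log2 scale, and over all genes it was 0.01.

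With siKeap1-2, 4 of the 38 members were called higher and none lower, where 2.85% of all genes were called higher and 3.75% lower (4.5% and 4.42% of the genes over 10). These were Psmb5, Psmd1, Psmd11 and Psme1, the interferon-inducible activator subunit. Before adjustment, 11 of the 38 members had p under 0.05 (limma), all of them higher. Of all 18193 genes, 1681 were higher and 2305 lower at that p. The median difference was 0.08 against -0.01 over all genes. Both comparisons rest on the same 8 control mice. Between the siRNAs no member was called (limma), while 0.121% of all genes were called higher and 0.121% lower. By the unadjusted p, Psmb5 was higher and Psmb8 and Psmb9 were lower with siKeap1-1 than with siKeap1-2.

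**Figure D1:**
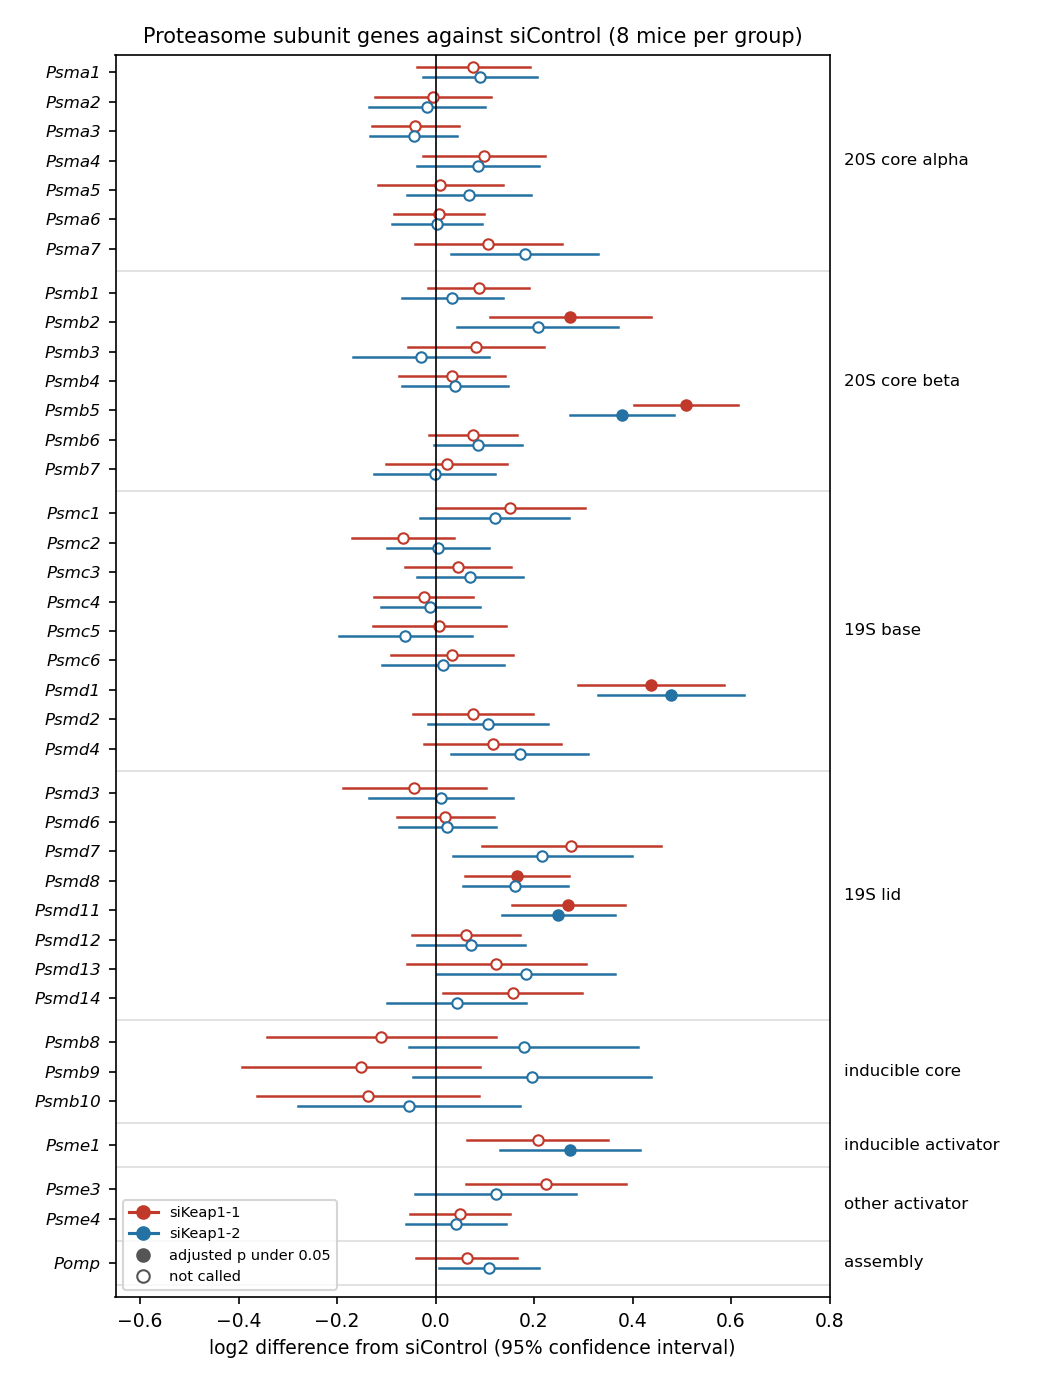
Log2 difference from siControl for the 38 measured members, grouped by subunit class, with 95% confidence intervals from the limma fit (n = 8 mice per group; filled points, adjusted p under 0.05). Psmb5 and Psmd1 lie farthest to the right with both siRNAs, and the intervals of Psmb8, Psmb9 and Psmb10 are the widest.

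The calls of each class are given as counts of few genes, and the classes were not tested against each other. None of the 7 alpha subunits, 2 of the 7 beta subunits, 1 of the 9 base subunits and 2 of the 8 lid subunits were called higher with siKeap1-1. With siKeap1-2 the counts were 0, 1, 1 and 1. Over all genes the share called higher was 4.82% with siKeap1-1 and 2.85% with siKeap1-2. Over the genes with a mean log2 signal over 10 it was 7.81% and 4.5%. The median difference was 0.01, 0.08, 0.04 and 0.14 in the alpha, beta, base and lid classes with siKeap1-1, and 0.07, 0.04, 0.07 and 0.12 with siKeap1-2. In the beta class and in the base the called members had the largest differences with both siRNAs. In the lid the uncalled Psmd7 had the largest difference with siKeap1-1 (0.28). With siKeap1-2 it (0.22) came after the called Psmd11.

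The class mean on each array, an average of the members' log2 signals, shows the same spread. For the 7 beta subunits it was lowest 12.71, median 12.77 and highest 12.85 with siControl, 12.79, 12.94 and 13.00 with siKeap1-1, and 12.81, 12.87 and 12.93 with siKeap1-2. For the 7 alpha subunits it was 12.48, 12.55 and 12.62 with siControl, 12.42, 12.63 and 12.66 with siKeap1-1, and 12.54, 12.59 and 12.66 with siKeap1-2. The groups overlapped in both classes.

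For the 9 base subunits the class mean was 11.88, 11.99 and 12.13 with siControl, 11.94, 12.07 and 12.22 with siKeap1-1, and 12.00, 12.11 and 12.18 with siKeap1-2. For the 8 lid subunits it was 11.14, 11.19 and 11.35 with siControl, 11.23, 11.36 and 11.51 with siKeap1-1, and 11.25, 11.35 and 11.45 with siKeap1-2. The groups overlapped here too, and in the base and the lid the lowest treated arrays lay within the range of the controls.

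**Figure D2:**
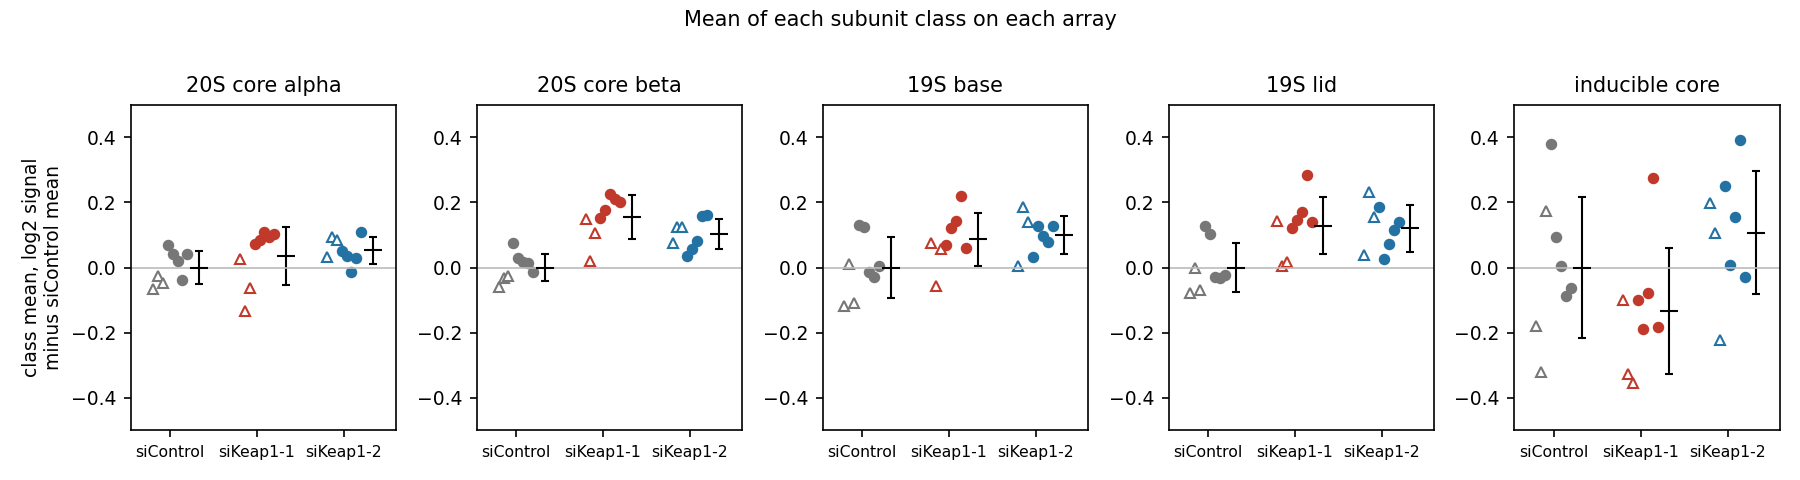
Mean log2 signal of each subunit class on each array, minus the siControl mean of that class (open triangles, replicates 1 to 3; filled circles, replicates 4 to 8; bars, group mean ± SD, n = 8). The beta subunits stand highest with siKeap1-1, and the 3 inducible core subunits spread more widely than any of the other 4 classes.

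Psmb5, which carries the chymotrypsin-like site, had a lowest, median and highest log2 signal of 12.39, 12.49 and 12.56 with siControl. With siKeap1-1 the values were 12.89, 13.00 and 13.15, and with siKeap1-2 12.71, 12.85 and 13.00. All 8 mice of either siRNA group stood above all 8 control mice. The difference was 0.51 (95% confidence interval 0.40 to 0.62, adjusted p = 3.9e-07) with siKeap1-1 and 0.38 (0.27 to 0.48, adjusted p = 5.3e-05) with siKeap1-2, which are folds of 1.42 and 1.30. Between the siRNAs the difference was 0.13 (0.02 to 0.24, adjusted p = 0.41).

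Psmb2, a beta subunit without a proteolytic site, measured 11.32, 11.42 and 11.54 with siControl, 11.43, 11.75 and 11.90 with siKeap1-1, and 11.26, 11.66 and 11.92 with siKeap1-2. With siKeap1-1, 6 of 8 mice lay above all controls, and the difference was 0.27 (0.11 to 0.44, adjusted p = 0.030). With siKeap1-2 it was 0.21 (0.04 to 0.37, adjusted p = 0.13), with 7 mice above and 1 mouse below all controls.

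The other catalytic subunits were not called. Psmb6, with the caspase-like site, measured 13.33, 13.36 and 13.40 with siControl, 13.26, 13.47 and 13.51 with siKeap1-1, and 13.38, 13.44 and 13.54 with siKeap1-2. In each siRNA group 7 of 8 mice lay above all controls, but the differences were 0.08 (-0.01 to 0.17, adjusted p = 0.31) and 0.09 (0.00 to 0.18, adjusted p = 0.26). Psmb7, with the trypsin-like site, differed by 0.02 (-0.10 to 0.15) and 0.00 (-0.13 to 0.12). Of the structural subunits Psmb1, Psmb3 and Psmb4, none was called, and their differences lay between -0.03 and 0.09 over both siRNAs.

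None of the alpha subunits was called with either siRNA. The smallest p-values with siKeap1-1 belonged to Psma4, Psma7 and Psma1, with differences of 0.10, 0.11 and 0.08. With siKeap1-2 they differed by 0.09, 0.18 and 0.09. Psma7 measured 12.52, 12.63 and 12.85 with siControl, 12.54, 12.84 and 13.01 with siKeap1-1, and 12.75, 12.84 and 12.99 with siKeap1-2. Its groups overlapped, with 4 of 8 mice above all controls in each siRNA group. Psma2, Psma3, Psma5 and Psma6 differed by between -0.04 and 0.07.

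In the base, Psmd1, a large scaffold protein that holds other 19S subunits, was the only member called. It measured 9.89, 10.07 and 10.30 with siControl, 10.29, 10.55 and 10.73 with siKeap1-1, and 10.41, 10.57 and 10.71 with siKeap1-2. With siKeap1-1, 7 of 8 mice and with siKeap1-2 all 8 mice stood above every control. The differences were 0.44 (0.29 to 0.59, adjusted p = 3.0e-04) and 0.48 (0.33 to 0.63, adjusted p = 2.0e-04), folds of 1.35 and 1.39. Between the siRNAs Psmd1 differed by -0.04 (-0.19 to 0.11).

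The 6 ATPases of the base, Psmc1 to Psmc6, were not called. Psmc1 had the smallest p of them with siKeap1-1, at 0.15 (0.00 to 0.30, adjusted p = 0.22), and differed by 0.12 with siKeap1-2. The others differed by between -0.07 and 0.07 over both siRNAs. The ubiquitin receptor Psmd4 differed by 0.12 and 0.17 (adjusted p = 0.32 and 0.14), and Psmd2, the second scaffold of the base, by 0.08 and 0.11. Psmd1 thus differed by more than 0.25 on the log2 scale, which none of the other 8 base subunits did with either siRNA.

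In the lid, Psmd11, which bridges the lid and the alpha ring, measured 11.76, 11.90 and 12.09 with siControl, 11.99, 12.18 and 12.28 with siKeap1-1, and 12.08, 12.17 and 12.26 with siKeap1-2. In each siRNA group 7 of 8 mice lay above all controls. The differences were 0.27 (0.15 to 0.38, adjusted p = 2.9e-03) and 0.25 (0.13 to 0.36, adjusted p = 7.8e-03), folds of 1.21 and 1.19. Psmd11 had 8 probe sets that name no other gene. Those with mean log2 signals of 9.89 and 7.28 were also called higher with both siRNAs, by 0.48 and 0.44 for the first siRNA and by 0.49 and 0.55 for siKeap1-2. The other 5 probe sets were called with neither. Among them was the second brightest, with a mean of 11.62, which differed by 0.11 (adjusted p = 0.41) and 0.14 (adjusted p = 0.29). Read from that probe set, Psmd11 would not have been called with either siRNA.

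Psmd8, needed for the lid to join the particle, measured 12.27, 12.39 and 12.48 with siControl, 12.35, 12.56 and 12.69 with siKeap1-1, and 12.42, 12.53 and 12.69 with siKeap1-2. Its differences were nearly equal, 0.17 (0.06 to 0.27) and 0.16 (0.06 to 0.27), but lay on either side of the threshold, with adjusted p = 0.044 and 0.062. Its call with siKeap1-1 was the least stable of the 5, and was lost in 12 of the 16 fits without 1 mouse. Psmd7, the partner of the lid's deubiquitylase, measured 7.64, 7.87 and 8.12 with siControl, 7.94, 8.16 and 8.40 with siKeap1-1, and 7.80, 8.14 and 8.32 with siKeap1-2. It narrowly missed the threshold with siKeap1-1, at 0.28 (0.09 to 0.46, adjusted p = 0.0502), and differed by 0.22 (0.03 to 0.40, adjusted p = 0.15) with siKeap1-2. The deubiquitylase itself, Psmd14, differed by 0.16 and 0.04, and Psmd3, Psmd6, Psmd12 and Psmd13 by between -0.04 and 0.18, none of them called.

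**Figure D3:**
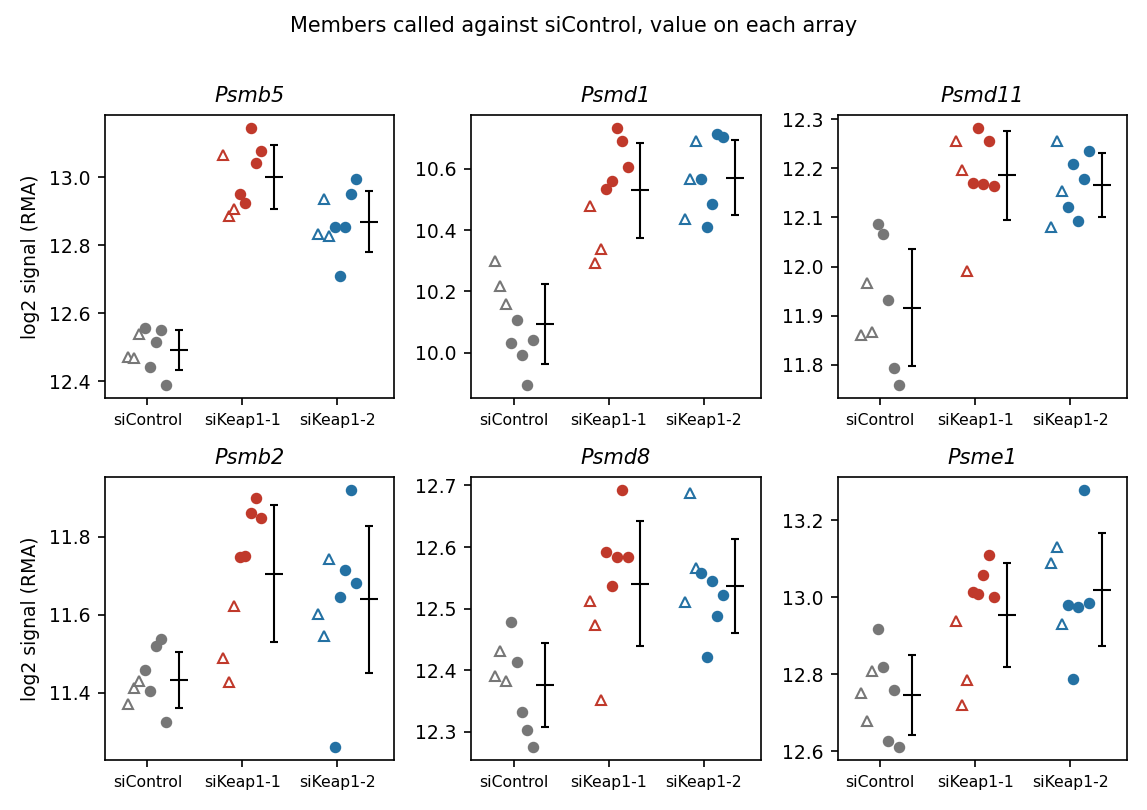
Log2 signal on each array for the 6 members called against siControl with at least 1 siRNA (open triangles, replicates 1 to 3; filled circles, replicates 4 to 8; bars, mean ± SD, n = 8; each panel has its own vertical range). Psmb5 shows no overlap between control and treated mice, whereas Psmb2 and Psme1 each have treated mice within the control range.

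Among the activators, Psme1 measured 12.61, 12.76 and 12.92 with siControl, 12.72, 13.00 and 13.11 with siKeap1-1, and 12.79, 12.98 and 13.28 with siKeap1-2. It was called with siKeap1-2, at 0.27 (0.13 to 0.42, adjusted p = 0.019), and not with siKeap1-1, at 0.21 (0.06 to 0.35, adjusted p = 0.061). The difference between the siRNAs was -0.07 (-0.21 to 0.08), so Psme1 was not shown to differ between them. Psme3, which forms a nuclear activator, differed by 0.22 (0.06 to 0.39, adjusted p = 0.078) and 0.12 (-0.04 to 0.28), and Psme4, the activator PA200, by 0.05 and 0.04. Pomp, the chaperone that matures the assembling core, differed by 0.06 and 0.11 (adjusted p = 0.49 and 0.21).

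The inducible core subunits were called in no comparison. Psmb8, which takes the place of Psmb5, measured 10.30, 10.70 and 11.10 with siControl, 10.26, 10.60 and 10.92 with siKeap1-1, and 10.55, 10.85 and 11.27 with siKeap1-2. It differed from the control by -0.11 (-0.34 to 0.12) and 0.18 (-0.05 to 0.41), while Psmb5 differed by 0.51 and 0.38. Psmb9, which takes the place of Psmb6, measured 9.60, 9.98 and 10.27 with siControl, 9.17, 9.88 and 10.26 with siKeap1-1, and 9.83, 10.22 and 10.30 with siKeap1-2. It differed by -0.15 (-0.39 to 0.09) and 0.20 (-0.05 to 0.44). Psmb10, which takes the place of Psmb7, measured 11.17, 11.59 and 12.03 with siControl, 11.28, 11.33 and 11.86 with siKeap1-1, and 11.17, 11.46 and 11.82 with siKeap1-2, and differed by -0.14 (-0.36 to 0.09) and -0.05 (-0.28 to 0.17). All 3 groups overlapped for each of these genes.

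Between the siRNAs, Psmb9 differed by -0.35 (-0.59 to -0.11, adjusted p = 0.31) and Psmb8 by -0.29 (-0.52 to -0.06, adjusted p = 0.40). Neither passed the adjusted threshold. These genes also varied most from mouse to mouse. The median SD within groups was 0.23 over the inducible core, 0.11 over all members and 0.19 over all genes, so that a difference of a given size was harder to call in the inducible core than in the other subunits.

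**Figure D4:**
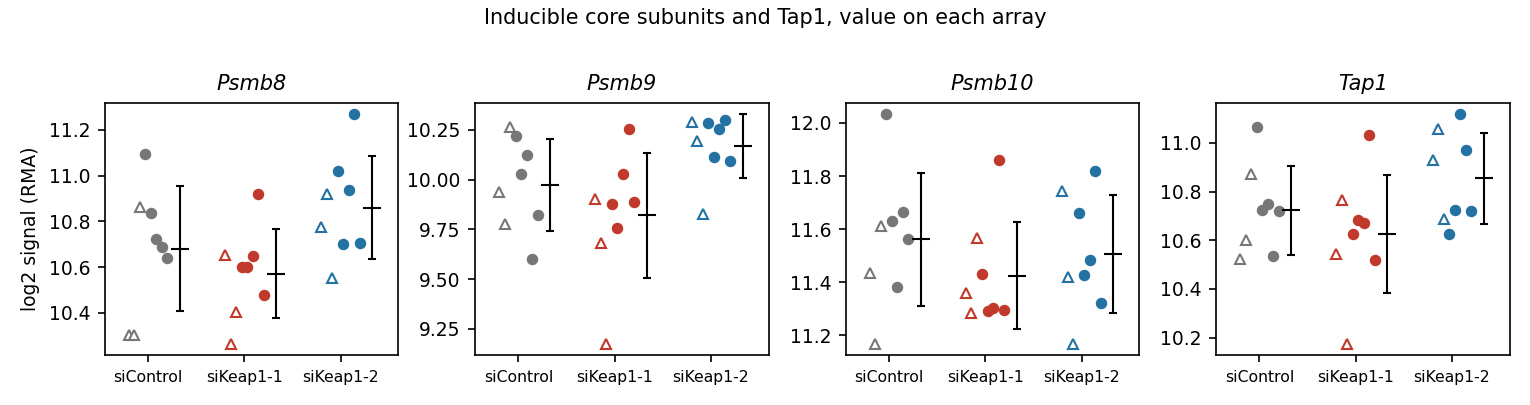
Log2 signal on each array for Psmb8, Psmb9, Psmb10 and the peptide transporter gene Tap1, which lies beside Psmb9 in the genome (open triangles, replicates 1 to 3; filled circles, replicates 4 to 8; bars, mean ± SD, n = 8; each panel has its own vertical range). The 3 groups overlap in every panel, and siKeap1-1 replicate 3 holds the lowest value of Psmb9, at 9.17.

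Within the groups the members moved together in part. After the group means were removed, the class means correlated over the 24 arrays with Pearson r = 0.83 for alpha and beta subunits and 0.80 for base and lid. The other pairs among these 4 classes gave r between 0.69 and 0.76. The inducible core followed them less, with r between 0.33 and 0.51, and the median over single pairs of an inducible and a constitutive core gene was 0.24, against 0.37 within the constitutive core. These points share the array and its normalization, so the values are descriptions only.

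The inducible genes also deviated with Tap1, which carries peptides into the endoplasmic reticulum. For Psmb9 and Tap1 r was 0.74, and Psmb8, Psmb10 and Psme1 followed Tap1 with 0.60, 0.42 and 0.51 over the same 24 arrays. The inducible core mean deviated with the mean of 16 leukocyte markers at r = 0.46, and the 4 constitutive classes at between 0.07 and 0.24. The leukocyte mean lay between 7.74 and 8.30 with siControl, 7.65 and 8.23 with siKeap1-1, and 7.79 and 8.39 with siKeap1-2. Its part in the values of Psmb8, Psmb9 and Psmb10 was not tested.

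Outside the lists, the genes whose deviations were most like those of the mean of the 14 constitutive core subunits were Ebpl (r = 0.80), Cyp27a1 (r = 0.77) and Mrpl52 (r = 0.76), over 24 arrays. The 4 inducible genes with a value also followed each other, with a median r of 0.65 within Psmb8, Psmb9 and Psmb10 and 0.59 between Psme1 and these. Of the 6 members called with at least 1 siRNA, Psmd11 deviated with Nqo1 at r = 0.63 and the other 5 at between -0.09 and 0.24. With Keap1, r was -0.01 for Psmb5, 0.15 for Psmd11, 0.30 for Psmd8, 0.37 for Psme1, 0.39 for Psmb2 and 0.45 for Psmd1.

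**Figure D5:**
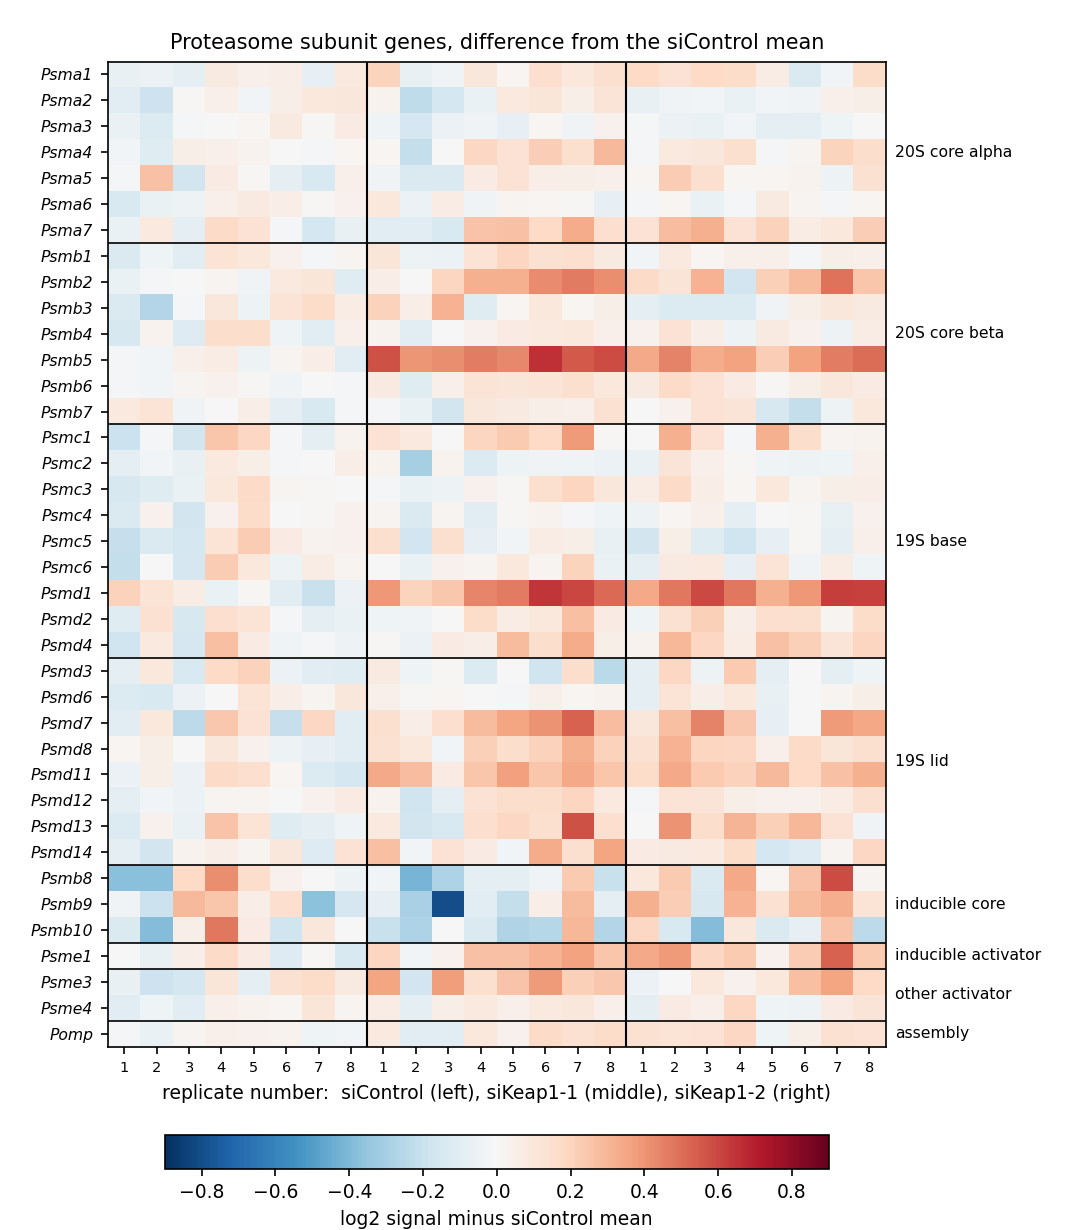
Log2 signal of the 38 measured members on each of the 24 arrays, as the difference from the siControl mean of the gene (red, higher; blue, lower; columns, replicates 1 to 8 of siControl, siKeap1-1 and siKeap1-2). Psmb5 and Psmd1 are red across nearly all treated mice. For many members, among them every alpha subunit, siKeap1-1 replicate 2 lies below the siControl mean, on the blue side.

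The arrays differed in a control signal that touches these results. For siControl, the log2 signal of the 18S ribosomal RNA probe set ran from 10.34 to 10.77 in mice 1 to 3 and from 8.86 to 9.54 in mice 4 to 8. For siKeap1-1 the ranges were 10.17 to 10.44 and 11.17 to 11.43, and all 8 mice of siKeap1-2 fell within 10.45 to 11.12. It was higher than with siControl by 1.23 (p = 0.00435) and 1.18 (p = 0.00155) on the log2 scale, by exact permutation tests. The constitutive core mean also split at this number. For siControl it ran from 12.60 to 12.63 in mice 1 to 3 and from 12.65 to 12.73 in mice 4 to 8. For siKeap1-1 the ranges were 12.60 to 12.75 and 12.77 to 12.83, whereas both sets of siKeap1-2 overlapped. From mice 1 to 3 to mice 4 to 8 the 18S signal fell in siControl while the core mean rose, and in siKeap1-1 both rose. Over the 24 arrays, after the group means were removed, the core mean and the 18S signal correlated at r = 0.07. Single members ranged from -0.66 (Psmd6) to 0.62 (Psmd1).

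Psmb5 showed its rise in both sets. Its mean was 12.49 with siControl and 12.95 with siKeap1-1 in replicates 1 to 3, and 12.49 and 13.03 in replicates 4 to 8. Psmd1 differed more between the sets, with means of 10.23 and 10.37 in replicates 1 to 3 and 10.01 and 10.62 in replicates 4 to 8. With siKeap1-2 the means of Psmd1 were 10.56 and 10.58 in the sets. The siKeap1-1 mean was thus higher, and the siControl mean lower, in replicates 4 to 8 than in replicates 1 to 3.

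The other called members were read the same way. Psmd11 had means of 11.90 and 12.15 (siControl, then siKeap1-1) in replicates 1 to 3, and 11.93 and 12.21 in replicates 4 to 8. Psmb2 had 11.40 and 11.51, and then 11.45 and 11.82. Psmd8 had 12.40 and 12.45, and then 12.36 and 12.60. The siKeap1-1 means were thus above the control in both sets for these members, and the step was larger in replicates 4 to 8, most of all for Psmb2, Psmd8 and Psmd1. With siKeap1-2 the means of Psme1 were 13.05 and 13.00 in the sets, against 12.75 and 12.75 with siControl. In replicates 1 to 3 alone no member was called with either siRNA (limma; 3 and 10 at an unadjusted p under 0.05). In replicates 4 to 8 alone 5 members were called with siKeap1-1 and 2, Psmb5 and Psmd1, with siKeap1-2. With the 18S signal as a covariate Psmb5 alone was called with each siRNA. The shares of all genes called in these fits were not counted. The part of whatever moved the 18S signal in these values was not tested.

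Other probe sets of the members were read as a check on the choice of the brightest. The 21 members with several had 44 others, of which siKeap1-1 brought 6 calls (3 of them higher) and siKeap1-2 brought 4 (3 of them higher). A Psma1 probe set with a mean signal of 6.35 fell by 0.83 and by 0.61, and another with a mean of 6.45 fell by 0.37 (adjusted p = 0.036) with siKeap1-1, against 0.08 and 0.09 for the brightest one at 12.19. A Psmd13 probe set with a mean of 7.32 fell by 0.46 with siKeap1-1, and a Psmb3 probe set with a mean of 11.01 rose by 0.29. The direction for Psma1 and Psmd13 thus depended on which probe set was read.

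Genes that act beside the proteasome were read from lists of their own. Their counts stand beside the shares over all genes. With siKeap1-1 these were 4.82% higher and 4.67% lower, and with siKeap1-2 2.85% and 3.75%. The lists were not tested as sets. Of 16 measured assembly chaperones and proteasome-bound factors, 1 (6.25%) was called higher with each siRNA and none lower. With siKeap1-1 it was Psmd5, a chaperone of the base, at 0.33 (adjusted p = 5.4e-03), and with siKeap1-2 Psmf1, an inhibitor of the core, at 0.44 (adjusted p = 0.028). Psmd5 measured 10.05, 10.28 and 10.51 with siControl and 10.41, 10.62 and 10.83 with siKeap1-1. Of 8 measured ubiquitin-related and shuttle genes, Ubqln2, which carries ubiquitylated proteins to the proteasome, was the only one called, at 0.38 (adjusted p = 3.7e-04) and 0.35 (adjusted p = 1.5e-03).

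A list of 13 measured genes covered Nfe2l1 and the control of proteasome genes, and also held Nfe2l2 and the NF-Y subunits. Past the threshold, 2 of these genes were lower and none higher with siKeap1-1, and 1 was higher and 1 lower with siKeap1-2. Nfe2l1 itself was not called, with differences of 0.15 and 0.03 (adjusted p = 0.33 and 0.90). Nfe2l2 fell by 0.63 (adjusted p = 4.1e-05) and 0.49 (adjusted p = 1.2e-03) on the log2 scale. The NF-Y subunit Nfyc fell by 0.24 with siKeap1-1 (adjusted p = 0.012), and the small Maf protein Mafk, a binding partner of Nfe2l1 and Nfe2l2, rose by 0.36 with siKeap1-2 (adjusted p = 0.016).

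Of 9 measured antigen processing genes, 2 were called lower with siKeap1-1, where 4.67% of all genes were. They were Nlrc5, an activator of class I genes (-0.36, adjusted p = 6.6e-03), and the class I gene H2-K1 (-0.18, adjusted p = 0.029). With siKeap1-2 none was called (limma, 1 lower at an unadjusted p under 0.05), against 3.75% of all genes called lower. Of the 8 genes in the list of Keap1 and Nrf2 targets, 6 were called higher with siKeap1-1 and 5 with siKeap1-2, with medians of 0.55 and 0.35, and Keap1 was called lower with both. Srxn1, a sulfiredoxin, differed by 1.97 and 1.60. The largest differences of the members, those of Psmb5 and Psmd1, were smaller than those of Nqo1 and Srxn1 with both siRNAs.

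The tissue was checked against cell type markers. Hepatocyte markers were bright, with a mean over 8 genes between 14.17 and 14.37 on all arrays, and none was called with either siRNA (limma; 2 and 1 lower at an unadjusted p under 0.05). Of 16 leukocyte markers only Cd4 was called, which fell by 0.55 with siKeap1-1 (adjusted p = 3.1e-03), with a mean signal of 5.93. In all, 13 leukocyte markers had a negative difference with siKeap1-1 and 9 with siKeap1-2. At an unadjusted p under 0.05, 2 and 1 were lower and none higher (limma). Of 10 endothelial, stellate and bile duct markers only Sox9 was called, higher by 0.87 and 0.96. With siKeap1-1, 9 of these 10 had a positive difference (median 0.19), and 4 were higher and none lower at an unadjusted p under 0.05 (limma). With siKeap1-2, 5 were positive (median 0.00), and 1 was higher and 1 lower at that p. Of all 18193 genes, 53.9% had a positive difference with siKeap1-1 and 48% with siKeap1-2. At an unadjusted p under 0.05 (limma), 2269 of them were higher and 2190 lower with siKeap1-1. With siKeap1-2 the numbers were 1681 and 2305. The part of the cell type markers in the members' values was not tested.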

How the data were processed

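Liver RNA of 24 mice was measured on whole genome Affymetrix arrays for the mouse. The authors deposited log2 signals made with RMA (background correction, quantile normalization and probe summary, in a version not given in the sources used here). Of the 45101 probe sets, 64 controls of the manufacturer did not enter the tests. The platform annotation names 1 gene for 34945 probe sets, several for 932 and none for 9160. Group means were compared in R 4.3.3 with the lmFit and eBayes functions of limma 3.58.1 (1 fit of all groups), with Benjamini-Hochberg adjustment over 45037 probe sets. Keap1 and 18S were also tested by exact permutation (12870 splits). The procedure was tested on simulated data.

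The members and lists were chosen with earlier results of these data known. Genes were named by a rule: up to 3 members per class with the smallest p with siKeap1-1, the inducible subunits with their counterparts, up to 3 called genes of each related list with the largest change, Keap1, Nqo1, Nfe2l1 and Nfe2l2, and the 3 genes most like the core mean. The remaining members are given with their classes, and Psmd14 was singled out after its values were seen. The labels name no batch, and the number of arrays limits the precision. Psme2, and Paaf1, Adrm1 and others of the related lists, have no single-gene probe set in the annotation used here and were not analysed. Alternatives on replicates 1 to 3 and 4 to 8 were chosen after seeing the data. Plots were made in Python 3.11.15 (matplotlib 3.10.9).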

Additional observations from a re-analysis of the deposited data

Results flagged for a closer look

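Within a group of 8, a single mouse stood apart from the rest for a few members, judged by the gap to its nearest neighbour relative to the range of the group. This was so in 6 of the 117 combinations of a group with a measured member or Keap1 (5.13%), all 6 of them members, and chance gives about 1 in 20. The values were 11.47 for Psma4 in siControl replicate 2, 11.99 for Psmd11 in siKeap1-1 replicate 3, and 9.83 for Psmb9 in siKeap1-2 replicate 3. In siKeap1-1 replicate 2 they were 13.26 for Psmb6, 10.02 for Psme3 and 12.56 for Psme4. All 6 were the lowest value of their group. The same mouse, siKeap1-1 replicate 2, also had the lowest constitutive core mean of its group, 12.60.

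Keap1 differed between the siRNAs by -0.76 on the log2 scale, lower with siKeap1-1, and this difference was called.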

How the results depend on the processing

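With siKeap1-1, where 5 members were called, the count became 8 when probe sets with a mean log2 signal under 6 were left out and 8 with the mean over all probe sets of a gene (7 higher, and Psma1 lower). It became 3 against siControl replicates 4 to 8 alone, 2 against siControl replicates 1 to 3 alone, 1 with the 18S signal as a covariate, and 0 with the methods' thresholds (a fold of 2 and p under 0.01) and in replicates 1 to 3 of each group. With siKeap1-2, where 4 were called, it became 2 in replicates 4 to 8, 1 against siControl replicates 1 to 3 alone, 1 with the 18S covariate, and 0 with the methods' thresholds and in replicates 1 to 3. The cause was not tested, except that the sets of 3 mice hold fewer samples and that no member reached a fold of 2. Shares of all genes called were not counted under the alternatives, here and below. These counts thus cannot tell a change in the members from a change over all genes.

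Without 1 mouse in turn, the count lay between 3 and 8 with siKeap1-1, between 4 and 5 with siKeap1-2, and stayed at 0 between the siRNAs. It was 3 without siControl replicate 8 or siKeap1-1 replicate 5, 6, 7 or 8, and 8 without siKeap1-1 replicate 2. Psmb5 kept its call under 17 of 19 other alternatives with each siRNA, all but the methods' thresholds and replicates 1 to 3 of each group. Keap1 stayed lower with p under 0.05 in every alternative run for it, from -2.42 to -1.27 for siKeap1-1 and from -1.66 to -0.90 for siKeap1-2.

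The labels do not say that replicate numbers pair the mice. The deviations of same-numbered arrays correlated between -0.23 and 0.35 and passed 0.1 in 12 of 24 pairs. Arrays with different numbers were not compared, so these values cannot decide whether the numbers pair the mice. With the replicate block 5, 4 and 0 members were called in the 3 comparisons; Psmd8 was lost and Psme3 gained with siKeap1-1. With replicates 1 to 3 against 4 to 8 as a term the counts were 7 and 4.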
